A study of Drosophila melanogaster with 12 samples.

Results

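Activated unfertilized eggs of Drosophila melanogaster that lacked the cytoplasmic poly(A) polymerase Wispy were set against wild type eggs of the same stage. The comparison was defined by the labelled stage and genotype and used no measured value. It took 2 mutant and 2 wild type egg libraries, 4 of the 12 libraries of the series, and all 5421 distinct transcript records of the deposited table. The mutant carried wispKG5287, an allele that the labels describe as null, and the wild type was w1118. The eggs were 0 to 1 h old and were laid at 25 °C. According to the labels, unfertilized eggs came from w1118 virgin females mated to sterile sons of tud1 mothers. The same text stands on the mutant samples, so how the mutant eggs were obtained is not spelled out. The other 8 libraries, immature oocytes of oogenesis stages 9 to 10 and mature oocytes of stage 14 dissected from females aged 3 or 4 days, entered the same fit, and the mature oocytes also served as a second genotype comparison. Genotype and any other difference between the mutant line and w1118 cannot be told apart in this design.

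A late oocyte and an unfertilized egg carry RNA that was made earlier in the ovary, largely by the nurse cells, and they make little or none of their own. At egg activation stored mRNAs are translated, silenced or destroyed, and the length of the poly(A) tail is one of the features through which translation is set. Wispy is a member of the GLD-2 family of cytoplasmic poly(A) polymerases, and it lengthens the tails of many maternal mRNAs late in oogenesis and at activation.

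The values are the authors' normalised read counts, given here without a further unit, and the depth of sequencing behind them is unknown. The 4 egg libraries summed to 11223505 and 13639894 in wild type and 12905895 and 14089899 in the mutant. No value in any of the 12 libraries lay under 100, so a transcript under that level in any library would not be listed. Neither a decrease nor an increase of such a transcript would be counted. Equal amounts of total RNA went into each library, so fewer eggs of a kind, less of a transcript per egg and more of other RNA cannot be told apart. All 10 markers of the maternal germline that were looked up (osk, nos, bcd, grk, vas, png, plu, gnu, CycB and aub) were in the table. Of 13 follicle cell, 5 fat body and blood, 5 muscle, 5 sperm and 11 early zygotic markers 0 were listed, and being unlisted does not show that a gene was silent. The summed value of the 10 germline markers was 78677 and 85962 in wild type and 98669 and 96266 in mutant eggs.

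The wisp transcript checked the labels (chromosome X, 11893943 to 11899920, plus strand, dm6). Its normalised read count was 7301 and 17226 in the wild type libraries and 189 and 397 in the mutant ones, so both mutant values lay far below both wild type values. On the log2(value + 1) scale, used for every log2 difference given here, the difference of mutant minus wild type was -5.35 (SE 0.67, limma adjusted p = 0.00222). The 2 wild type libraries differed from each other more than 2-fold for wisp. Left at 2.39% of the wild type mean, the transcript was low but listed in both mutant libraries.

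On the values as deposited, more transcripts were lower than higher in mutant eggs. Calls were made in limma, which estimated the spread over all 6 groups, at a p under 0.05 after Benjamini-Hochberg adjustment. Of 5421 records 959 were lower (17.7%) and 396 higher (7.3%). In every one of these 1355 both mutant values lay on the same side of both wild type values. Over all records the mutant pair lay wholly below the wild type pair in 2109 (38.9%) and wholly above it in 1158 (21.4%). The decreases also reached further: 547 called records were lower by at least 1 log2 unit, 69 by at least 2 and 6 by at least 3. Of the higher records 102 passed 1 log2 unit and 2, CG2493 and CG43427, passed 2. The median difference was -1.07 among the lower and 0.86 among the higher calls, with -0.16 over all records.

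The balance of the calls and their number rested on the scaling and on single libraries. Higher records made up 29.2% of the calls on the values as deposited, 48.9% after median-of-ratios scaling (566 higher, 592 lower) and 40.8% after quantile normalisation (203 higher, 294 lower), which moved the median over all records from -0.16 to 0.04 and 0.04. The calls numbered 203 when wild type replicate 2 was left out, 548 when mutant replicate 2 was, 903 for wild type replicate 1 and 967 for mutant replicate 1. A core of 171 records, 157 lower and 14 higher, passed with the same sign under all 14 alternatives that gave them a value. The 14 higher members of this core were CG2493, GstE6, GstD3, CG10157, Sp7, GstS1, CG31683, CG4676, CG12384, LSm7, CG6144, CG11788, Den1 and CG10038. Of the lower members 144 were also called lower in mutant mature oocytes, and of the higher members 8 were called higher there.

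**Figure D1:**
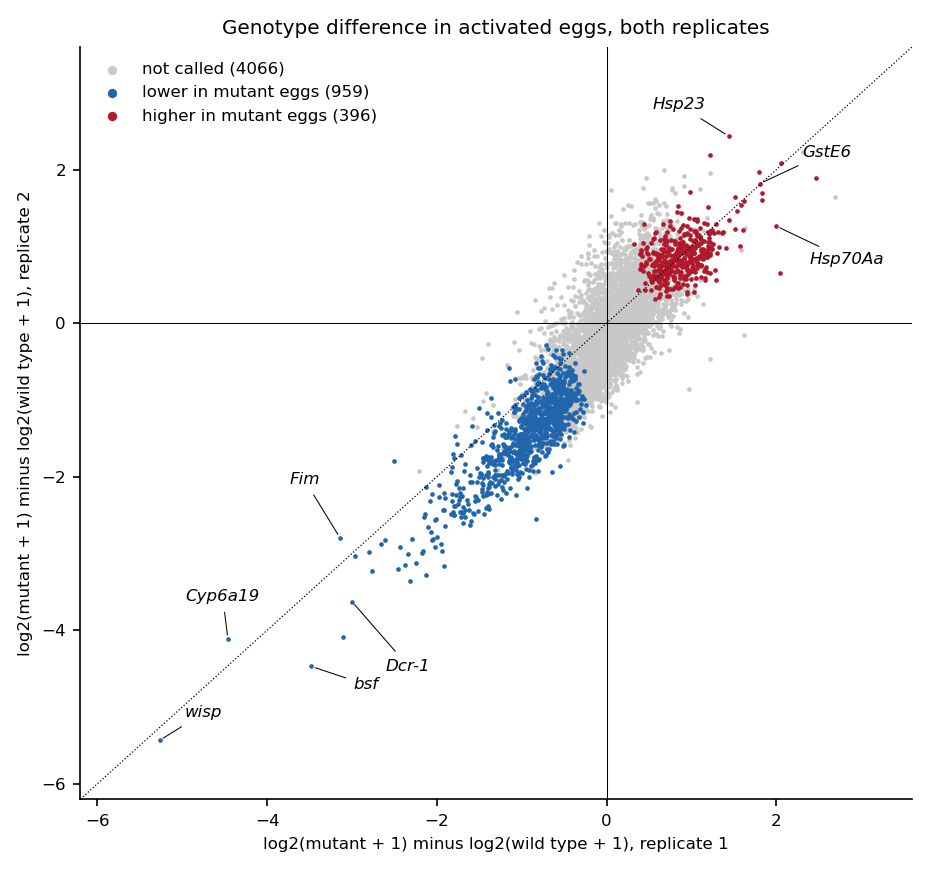
Genotype difference in activated eggs for 5421 records, as log2(value + 1) of the mutant minus the wild type library of the same number, replicate 1 on the x axis and replicate 2 on the y axis. Blue points are the 959 called lower, red the 396 called higher and grey the rest, and the dotted line marks equal differences. The blue cloud lies mostly below the dotted line, so its differences were larger between the libraries numbered 2, and wisp sits at the far lower left.

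The strongest decreases after wisp were in genes of several kinds. Cyp6a19, a cytochrome P450 (chromosome 2R, 14877786 to 14879752), stood at 5709 and 5019 in the wild type libraries and 258 and 288 in the mutant ones (log2 difference -4.29, SE 0.16, limma adjusted p = 1.15e-05). The transcript of bsf, the bicoid stability factor, a pentatricopeptide repeat RNA-binding protein (chromosome 2L, 18449517 to 18454587), stood at 3347 and 3452 in the wild type libraries and 299.5 and 155 in the mutant ones (log2 difference -3.97, SE 0.31, limma adjusted p = 0.000524). For Dcr-1, the Dicer that makes microRNAs (chromosome 3R, 22734007 to 22741091), the values were 2767 and 2755 in the wild type libraries and 345 and 222 in the mutant ones (log2 difference -3.31, SE 0.44, limma adjusted p = 0.00278). In these 3 genes the wild type libraries lay close together and each mutant value was several times lower than either.

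Genes of the nucleolus, of splicing and of 3′ end processing of small nuclear RNA were among the same leading decreases. RpI1 (current symbol Polr1A), the largest subunit of RNA polymerase I, which transcribes ribosomal RNA, stood at 2665 and 2576 in the wild type libraries and 391 and 274 in the mutant ones (log2 difference -3.0, SE 0.21, limma adjusted p = 0.000385). Fib encodes fibrillarin, the methyltransferase of box C/D small nucleolar ribonucleoproteins, and stood at 968 and 1101 in the wild type libraries and 193 and 107 in the mutant ones (log2 difference -2.84, SE 0.28, limma adjusted p = 0.00123). The mutant value of 107 in replicate 2 is close to the lowest values the table holds. For l(2)k09022, a ribosome biogenesis gene, the values were 3892 and 3720.1 in the wild type libraries and 451 and 217 in the mutant ones (log2 difference -3.60). Prp8, the core protein of the U5 small nuclear ribonucleoprotein at the centre of the spliceosome, was one of the more abundant of these transcripts, at 11161 and 11593 in the wild type libraries and 2153 and 1309 in the mutant ones (log2 difference -2.76). IntS2 and IntS4, subunits of the Integrator complex, which cleaves nascent small nuclear RNAs, had log2 differences of -2.71 and -2.69. IntS4 stood at 1604 and 1805 in the wild type libraries and 337 and 206 in the mutant ones.

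The remaining leading decreases were Tango14 (log2 difference -3.0), Fim, the actin-bundling protein fimbrin (-2.97), Ubi-p5E, a polyubiquitin gene (-2.89), l(3)L1231 (-2.77), timeout, a chromosome maintenance gene related to timeless (-2.67), and pug, a folate enzyme (-2.67). Ubi-p5E stood at 16019 and 17602 in the wild type libraries and 2291 and 2232 in the mutant ones, and as polyubiquitin genes share sequence with other copies its value is uncertain. Values of Tango14 were 1131 and 961 in the wild type libraries and 144 and 117 in the mutant ones, the lower mutant one again near the bottom of the table. Fim and l(3)L1231 differed within a genotype as well, with Fim at 1839 and 3325 (wild type) and 208 and 478 (mutant). Their calls were lost without mutant replicate 1 (log2 differences -2.37 and -2.26) and without wild type replicate 2 (-2.54 and -2.15). The other 13 of these 15 genes kept their calls whichever egg library was left out.

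Among genes that the deposited table gives only an annotation number, the leading decreases were CG5604 (current symbol Ufd4, a ubiquitin ligase), CG17322 (Ugt36E1, a UDP-glycosyltransferase), CG4557 (Tmf), CG8552 (PAPLA1, a phospholipase) and CG12050, with log2 differences of -2.83, -2.72, -2.54, -2.44 and -2.43. CG5604 stood at 12962 and 15274 in the wild type libraries and 2363 and 1652 in the mutant ones, so the loss was of an abundant transcript. CG17322 stood at 961 and 1070.4 in the wild type libraries and 157 and 150.02 in the mutant ones, with both mutant values close together. The call of CG8552 was lost without wild type replicate 2 (log2 difference -2.27).

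**Figure D2:**
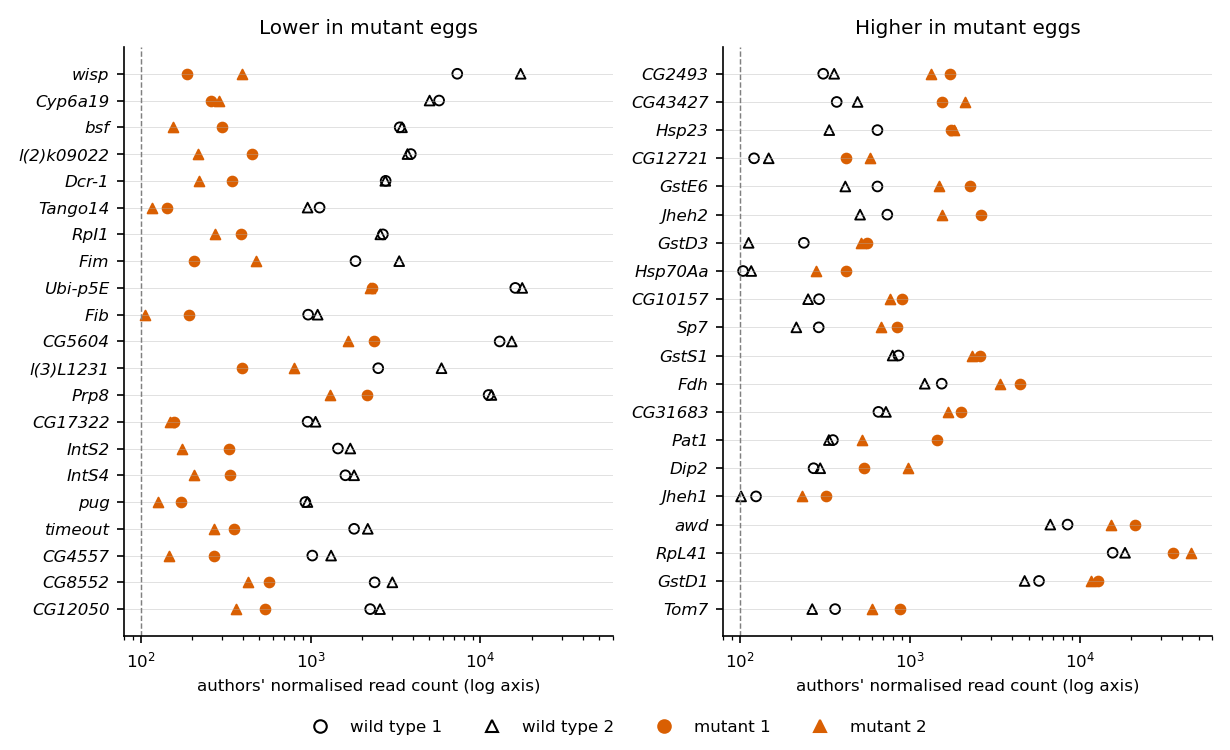
Normalised read counts in the 4 egg libraries (log axis) for wisp and the 20 genes that led the decreases (left) and the 20 that led the increases (right), ordered by log2 difference. Open black symbols are wild type, filled orange symbols mutant, circles replicate 1 and triangles replicate 2, and the dashed line at 100 marks the lowest level held by the table. In each row both orange symbols lie on one side of both black ones, and the gaps on the left are wider than those on the right.

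Detoxification enzymes and heat shock genes were among the leading increases. GstE6, an epsilon class glutathione transferase (chromosome 2R, 18406011 to 18406761), stood at 645 and 418 in the wild type libraries and 2260.2 and 1477 in the mutant ones (log2 difference 1.81, SE 0.26, limma adjusted p = 0.00335). GstS1, the sigma class enzyme that acts on products of lipid peroxidation, stood at 858 and 793 in the wild type libraries and 2586 and 2311 in the mutant ones (log2 difference 1.57, SE 0.16, limma adjusted p = 0.00123). GstD3 (1.71) and GstD1 (1.23), both of the delta class, lie 3800 bases apart on chromosome 3R. Glutathione transferases of a class are similar in sequence, so single members may share reads. Jheh2 and Jheh1, juvenile hormone epoxide hydrolases, are neighbours 680 bases apart on chromosome 2R and had log2 differences of 1.72 and 1.27. Jheh2 stood at 738 and 510.1 in the wild type libraries and 2619 and 1555 in the mutant ones. Fdh, formaldehyde dehydrogenase, stood at 1542 and 1225 in the wild type libraries and 4478 and 3376 in the mutant ones (1.5). GstE6, GstD3, GstS1 and GstD1 kept their calls whichever egg library was left out. Jheh2 (1.45), Jheh1 (1.12) and Fdh (1.33) lost theirs without wild type replicate 2.

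Hsp23, a small heat shock chaperone (chromosome 3L, 9381882 to 9382765), stood at 645 and 336 in the wild type libraries and 1752 and 1826 in the mutant ones (log2 difference 1.94, SE 0.39, limma adjusted p = 0.0116). Its 2 mutant values were alike and its 2 wild type values were not, and its call was lost without wild type replicate 2 (log2 difference 1.47) and without mutant replicate 2 (1.91). Hsp70Aa, one of several near-identical copies of the inducible Hsp70 gene whose reads may be shared, stood at 104.5 and 117 in the wild type libraries and 419.8 and 282 in the mutant ones (log2 difference 1.63, SE 0.49, limma adjusted p = 0.0424). Both wild type egg values of Hsp70Aa are close to the lowest values the table holds. In mature oocytes its values were 3832 and 5699 in wild type and 2957 and 3684 in the mutant. So the transcript was far lower in eggs than in mature oocytes of either genotype, and the higher egg level of the mutant was still a small part of the mature level. Of 6 heat shock genes in the table Hsp23 and Hsp70Aa were the 2 called (median 1.42), and Hsp26, at 8704 and 15045 in the wild type libraries and 20203 and 58426 in the mutant ones, was not (log2 difference 1.59, limma adjusted p = 0.211). The 6 genes did not share a direction. Both mutant values lay above both wild type values in 3, beside 21.4% of all records. They lay below in 2, beside 38.9% of all records, and the lowest log2 difference was -0.85. The call of Hsp70Aa was lost without any 1 of the 4 egg libraries, with log2 differences of 1.35 to 1.92.

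Other leading increases were Sp7, a serine protease of the melanization cascade (1.58), Pat1, a kinesin light chain-like protein (1.35), Dip2 (1.34, current symbol Dlip2), awd, a nucleoside diphosphate kinase (1.25), RpL41, a ribosomal protein (1.24), and Tom7, a subunit of the outer membrane import pore of mitochondria (1.22). Sp7 stood at 291 and 215 in the wild type libraries and 836 and 677 in the mutant ones, and it passed without each library in turn. Values of awd were 8480.1 and 6710.1 in the wild type libraries and 21148 and 15235 in the mutant ones, which makes it an abundant transcript in both genotypes. Pat1 stood at 353 and 334.3 in the wild type libraries and 1455 and 527 in the mutant ones, so 1 mutant library carried most of its difference, and without it the log2 difference was 0.61 and not called. RpL41 lost its call without any 1 of the 4 libraries (log2 differences 1.06 to 1.41). When wild type replicate 2 was left out, the calls of awd (1.08), Tom7 (1.0), Dip2 (1.41) and Pat1 (1.31) were lost. Tom7 was also lost without mutant replicate 1 (0.95), Pat1 without wild type replicate 1 (1.39), and Dip2 without wild type replicate 1 (1.28) or mutant replicate 2 (0.91).

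Of genes given only an annotation number, CG2493 rose most, from 309 and 359 in the wild type libraries to 1718 and 1331 in the mutant ones (log2 difference 2.18, SE 0.19, limma adjusted p = 0.000672). CG43427 (current symbol smash, a protein of adherens junctions) stood at 372 and 493 in the wild type libraries and 1550.3 and 2103 in the mutant ones (2.07). CG12721 (moon, the TFIIA-L paralogue Moonshiner that drives transcription of piRNA clusters) stood at 121 and 148 in the wild type libraries and 424 and 584 in the mutant ones (1.89). CG10157 (GILT2, a lysosomal thiol reductase) and CG31683 followed at 1.61 and 1.41. CG31683 and CG2493 lie 11621 bases apart on chromosome 2L, with 1 other record, Cdc23 (-0.81), starting between them. CG43427 lost its call without either wild type library (1.87 and 2.28) or mutant replicate 2 (1.85), and CG12721 without wild type replicate 2 (2.03).

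Transcripts for the machinery of translation divided by kind. In mutant eggs 61 of the 82 genes for proteins of the cytoplasmic ribosome were higher and 0 lower, where 7.3% of all records were higher and 17.7% lower. The members' median was 0.95, beside -0.16 over all records. RpL21 (1.19), RpL38 (1.19) and RpS3A (1.17) were among the largest increases. RpS3A stood at 18710 and 16917 in the wild type libraries and 40032 and 40017 in the mutant ones. In 78 of the 82 both mutant values lay above both wild type values, as they did in 21.4% of all records. Single calls depended on the fit. With 1 library left out, 0 of the 82 passed for wild type replicate 2 (median 0.80), 11 for mutant replicate 1 (0.67), 45 for wild type replicate 1 (1.13) and 62 for mutant replicate 2 (1.2). With median-of-ratios scaling 67 passed (1.16), with quantile normalisation 4 (0.73) and after removal of the length trend 18 (0.43).

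Aminoacyl-tRNA synthetases, which load tRNAs with amino acids, went the other way. Of 29 members 8 were lower and 0 higher, beside 17.7% and 7.3% of all records, with a median of -0.54. The lower ones were CG15100 (-1.48), Aats-val (-1.41), Aats-ser (-1.40), Aats-phe (-1.39), Aats-leu (-1.38), Aats-glupro (-1.12), CG5660 (-0.95) and Aats-arg (-0.60). Aats-val stood at 2477 and 2556 in the wild type libraries and 1319 and 677 in the mutant ones. When wild type replicate 2 was left out, 0 of the 29 passed (median -0.47). Initiation, elongation and release factors were mixed, with 4 of 43 higher, 4 lower and a median of 0.20. The guanine exchange factor of eIF2 had 2 called subunits, eIF2B-epsilon (-2.20) and eIF2B-delta (-1.27), and both fell along with eIF-2beta of its substrate (-1.31) and eIF3-S10 (-1.03). eIF2B-epsilon stood at 1256 and 981 in the wild type libraries and 297 and 197 in the mutant ones. The higher factors were eIF-5A (0.95), Ef1beta (0.75), eIF-3p40 (0.68) and CG10306 (0.62). With wild type replicate 2 left out, 2 factors were lower and 0 higher.

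Nuclear genes for the respiratory chain and ATP synthase were higher, with 41 of 68 called higher and 1 lower, beside 7.3% and 17.7% of all records. The members' median was 0.77. The increases covered ATP synthase (sun, 1.19, l(1)G0230, 1.01, and ATPsyn-beta, 0.89), cytochrome c oxidase (CoVa, 1.11, CG9603, 1.16, and CoIV, 0.94) and complex I (CG3621, 1.07, and l(3)neo18, 1.03). CoVa stood at 1904 and 1467 in the wild type libraries and 4123 and 3140.4 in the mutant ones. The member that fell was SdhC, the cytochrome b subunit of succinate dehydrogenase, at 478 and 358 in the wild type libraries and 280.5 and 207 in the mutant ones (-0.78). With 1 library left out, 1 was higher for wild type replicate 2 (median 0.66), 12 for mutant replicate 1 (0.63), 30 for wild type replicate 1 (0.88) and 33 for mutant replicate 2 (0.91). Median-of-ratios scaling gave 45 higher (0.97), quantile normalisation 20 (0.91) and removal of the length trend 7 (0.25). Mitochondrial import gave 3 higher of 11, Tom7, Tim10 (0.82) and Tim8 (0.62), with a median of 0.49, and 0 without wild type replicate 2. Of 11 glycolytic genes Tpi (1.03), Gapdh2 (0.96) and Gapdh1 (0.65) were higher (median 0.28), and 0 without wild type replicate 2. In the citric acid cycle Mdh2 rose (0.94) and Nc73EF, the E1 subunit of oxoglutarate dehydrogenase, fell (-0.89), among 15 members with a median of 0.25, of which 0 passed with wild type replicate 2 left out.

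Mitochondrial ribosomal proteins did not share the direction of the cytoplasmic ones. Of 65 members 11 were lower and 5 higher in eggs, counts near the shares over all records, with a median of -0.08. In mature oocytes 20 of the 65 were lower and 0 higher, beside 9.37% and 0.683% of all records, with a median of -0.45. In eggs single members differed in direction. The lower ones were led by mRpS30 (-1.41), mRpL20 (-1.17) and mRpL39 (-0.96), and the higher ones included mRpS10 (0.78) and mRpL12 (0.75). mRpS30 stood at 1673 and 1772 in the wild type libraries and 736 and 571 in the mutant ones, and mRpS10 at 424 and 396 in the wild type libraries and 747 and 662 in the mutant ones. Each pair was well apart from the other. The sign of the list's median turned with the scaling, to 0.13 with median-of-ratios and 0.12 with quantile normalisation. As for single calls, 4 were lower and 6 higher with median-of-ratios scaling, and 2 were lower and 0 higher with wild type replicate 2 left out.

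Of 14 glutathione transferases 8 were higher and 0 lower (median 0.74), beside 7.3% and 17.7% of all records. These calls added GstE11 (1.12), GstE8 (0.96), GstZ1 (0.70) and GstO2 (0.57) to those named above. After removal of the length trend 5 were higher and 1 lower, and 4 were higher with wild type replicate 2 left out. Antioxidant enzymes gave 6 higher and 1 lower of 15. Superoxide dismutases Sod (0.92) and Sod2 (0.88), the thioredoxins Trx-2 (0.82) and dhd, the female germline thioredoxin deadhead (0.74), and the peroxiredoxins Jafrac1 (0.77) and Jafrac2 (0.48) rose, while catalase, Cat, fell (-1.09). Sod stood at 1997 and 1673 in the wild type libraries and 3989.7 and 3017 in the mutant ones, and Cat at 573 and 716 in the wild type libraries and 335 and 268 in the mutant ones. These 2 enzymes act on successive products, superoxide and hydrogen peroxide, and their groups separated in opposite directions. Of the antioxidant genes 0 passed in either direction with wild type replicate 2 left out. Cytochrome P450 genes had 2 of 6 lower, Cyp6a19 and Cyp6t1 (-1.10). Among lipid genes ACC, acetyl-CoA carboxylase, fell (-1.77), as did HLH106, the sterol regulatory element binding protein SREBP (-0.88). Together with Jheh1 and Jheh2, which rose, these were the 4 calls in the list of 11 lipid storage and epoxide hydrolase genes (median 0.13), of which 0 passed with wild type replicate 2 left out.

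Protein turnover and folding lists showed few calls. Of 32 proteasome subunits 4 were higher and 0 lower, beside 7.3% and 17.7% of all records. The 4 were Prosbeta1 (0.93), Prosalpha5 (0.78), Prosbeta4 (0.72) and Prosalpha7 (0.59). Both mutant values exceeded both wild type ones in 26 of the 32 (median 0.42) and in 21.4% of all records. After removal of the length trend 0 subunits were higher and 1 lower (median 0.09), and quantile normalisation gave 1 higher. Of these subunits 0 passed without wild type replicate 2 and 12 with median-of-ratios scaling. Of 13 cytosolic and endoplasmic reticulum chaperones and 9 CCT chaperonin subunits 0 passed. The most abundant were Hsc70-4 (log2 difference -0.07), Hsc70-3 (-0.23), CG7033 (0.03) and Tcp-1zeta (-0.24), whose signs each turned under an alternative. Of 27 ubiquitin system genes 4 fell (14.8%), Ubi-p5E, the F-box protein ago (-1.47), Ubi-p63E (-0.89) and Cul1 (-0.71). In the same list 2 rose (7.41%), skpA (0.72) and Roc1a (0.75), and both shares are near those of all records. Cul1, skpA, Roc1a and ago belong to SCF ubiquitin ligases, and their calls differed in direction. The calls of skpA, Roc1a and ago were lost under 8, 6 and 4 of the 14 alternatives. Of the ubiquitin system list 1 gene was lower and 0 higher with wild type replicate 2 left out.

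Among membrane traffic genes the autophagy and ESCRT list had 11 of 45 lower and 0 higher (median -0.32), beside 17.7% and 7.3% of all records. The largest decreases were in ird1, the Vps15 subunit of the class III phosphatidylinositol 3-kinase (-2.16), Atg9, the membrane-spanning autophagy protein (-2.09), Vps13, a lipid transfer protein (-1.77), CG15523 (-1.66) and Atg2, also a lipid transfer protein (-1.42). Atg9 stood at 495 and 577 in the wild type libraries and 149 and 104.2 in the mutant ones. The groups were well separated there. Under median-of-ratios scaling 6 members were lower and 5 higher, and 3 were lower with wild type replicate 2 left out. Vacuolar ATPase had 2 of 17 higher (11.8%), VhaM9.7-c (0.66) and VhaAC39-1 (0.59), and Rab GTPases 2 of 21 (9.52%), Rab4 (0.86) and ltd (0.55). Both shares are near the 7.3% of all records. Of 21 vesicle coat genes garz (-1.18), AP-1mu (-0.86) and AP-1gamma (-0.72) were lower (14.3%) and AP-2sigma (0.71) higher (4.76%), shares under those of all records. In these last 3 lists 0 passed with wild type replicate 2 left out.

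The nucleolar and small nucleolar RNP list had 9 of 26 lower and 0 higher, beside 17.7% and 7.3% of all records, with a median of -0.51. Besides l(2)k09022 and Fib these included wcd (-2.14), l(1)G0020 (-1.89), NHP2, a box H/ACA core protein (-1.66), pit, a DEAD-box helicase (-0.96), and the nucleostemin relatives Ns3 (-0.93) and Ns4 (-0.74). NHP2 stood at 599 and 535 in the wild type libraries and 176 and 179 in the mutant ones. In 20 of the 26 both mutant values were below both wild type values, as they were in 38.9% of all records. With the length trend removed 8 were lower, and 4 with wild type replicate 2 left out. The ribosomal proteins themselves, described above, were on the higher side.

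Of 18 RNA polymerase subunits 5 were lower and 1 higher (median -0.29), beside 17.7% and 7.3% of all records. RpI1 was followed by RpII140, the second largest subunit of RNA polymerase II (-2.09), Sin (-1.34), RpII215, its largest subunit (-1.10), and RpII18 (-0.76), while RpII15 was higher (0.50). With wild type replicate 2 left out 2 were lower and 0 higher, and Sin, RpII215 and RpII18 were among the calls lost. RpII140 stood at 4307 and 3695 in the wild type libraries and 1147 and 765 in the mutant ones. Chromatin regulators had 9 of 33 lower and 1 higher, with a median of -0.72. They included brm, the ATPase of the Brahma remodelling complex (-1.74), E(z) and esc of Polycomb repressive complex 2 (-1.63 and -1.05), Psc of Polycomb repressive complex 1 (-1.29), Mi-2 (-1.45) and Acf1 (-1.32). E(z), the histone H3 lysine 27 methyltransferase, stood at 1157 and 1338 in the wild type libraries and 436 and 369 in the mutant ones. The higher one was the gene of heterochromatin protein 1a (1.01). With the length trend removed 6 chromatin regulators were lower (median -0.09), and 2 with wild type replicate 2 left out. Of 8 histone genes 0 passed.

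Splicing factors had 10 of 34 lower and 2 higher (median -0.36), beside 17.7% and 7.3% of all records. Below Prp8 came CG2807 (-1.94), SmB, a core Sm protein (-1.93), CG6227 (-1.75) and Prp38 (-1.57), while snf, a protein of the U1 and U2 small nuclear ribonucleoproteins, was higher (0.82), as was SmG (0.62). SmB stood at 821 and 725 in the wild type libraries and 240.1 and 169 in the mutant ones. In the list of poly(A) polymerases and cleavage factors 6 of 19 were lower, the mutated gene wisp among them, and 0 higher. After wisp these were CstF-50 (-1.27), Cpsf160 (-1.12), Sym, the scaffold symplekin (-1.08), Cpsf100 (-0.90) and Inr-a (-0.75). Of 12 deadenylase genes 3 were lower (25%), Rga, the Not2 subunit of CCR4-NOT (-2.31), Not1 (-1.43) and Not10 (-1.19). Rcd-1 of the same complex was higher (0.48). Among 27 decay genes 7 fell (25.9%) and LSm7 rose (1.18). The decreases were led by Dis3, the catalytic subunit of the exosome (-2.29), l(2)35Df, the Mtr4 helicase that feeds it (-1.67), and pcm, the Xrn1 exonuclease (-1.39). Dis3 stood at 1419 and 1426 in the wild type libraries and 349.5 and 241 in the mutant ones, and LSm7 at 479 and 394 in the wild type libraries and 941 and 1026 in the mutant ones. With wild type replicate 2 left out the lower members numbered 4 of the splicing factors, 1 of the poly(A) list, 1 of the deadenylases and 2 of the decay genes.

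Nuclear pore and genome maintenance lists had more lower than higher members, as did all records (17.7% lower, 7.3% higher). Of 29 nucleoporins and partners 10 were lower and 1 higher (median -0.53), with Nup358 of the cytoplasmic filaments at -2.15, Nup58 of the central channel at -1.99, Nup93-2 at -1.84, CG14749 (current symbol Gle1) at -1.80 and Nup214 at -1.72. Nup58 stood at 1001 and 1194 in the wild type libraries and 323 and 232 in the mutant ones. DNA replication had 14 lower and 2 higher of 40 (median -0.50). Polymerase epsilon fell in both listed subunits, DNApol-epsilon (-2.40) and Pole2 (-2.38), and RfC38 of the clamp loader (-1.76), DNApol-delta (-1.67) and DNApol-alpha73 (-1.65) followed. Pole2 stood at 812 and 959 in the wild type libraries and 189 and 152 in the mutant ones. PCNA, the sliding clamp itself, was higher (0.57), as was RPA3 (0.81). DNA repair and checkpoint genes had 11 of 30 lower and 0 higher (median -0.48), led by timeout, mus205, a subunit of the translesion polymerase zeta (-2.56), mei-41, the ATR kinase (-2.15), mus308 (-1.54) and Fancd2 (-1.54). Of 16 condensin and cohesin genes Cap-D3 (-1.39), Cap (-1.14), wapl (-1.05) and Cap-D2 (-0.87) were lower. When wild type replicate 2 was left out, the lower members numbered 3, 5, 4 and 0 in these 4 lists.

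Lists of small RNA pathways had shares of lower members near the 17.7% of all records. In the piRNA pathway, which silences transposons in the germline, 7 of 32 were lower and 1, CG12721 (moon), was higher (median -0.40). The lower ones were led by mino (-1.38), vls (-1.34), CG8920 (-1.22), spn-E (-0.97) and egg (-0.92). Of 10 microRNA and siRNA genes Dcr-1 and Ranbp21, the exportin that carries hairpin precursors (-1.10), were lower. With wild type replicate 2 left out, 0 piRNA pathway genes passed in either direction and Dcr-1 was the 1 microRNA gene that did.

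Lists of maternal regulators differed among themselves, and stand beside 17.7% lower and 7.3% higher over all records. Axis patterning and germ plasm genes had 4 of 30 lower and 3 higher (median -0.16), against 3 lower and 4 higher with median-of-ratios scaling. BicC (-1.05), vls, capu (-0.73) and csul (-0.73) were lower, and bic, the beta subunit of the nascent polypeptide-associated complex (0.98), pgc, which represses transcription in the primordial germ cells (0.89), and osk (0.56) were higher. The osk transcript stood at 15733 and 15521 in the wild type libraries and 25563 and 20723 in the mutant ones. In the dorsal group ea, the protease easter (-1.61), pll, the kinase pelle (-1.47), and Myd88 (-1.39) were lower of 11, and ea stood at 709 and 735 in the wild type libraries and 285 and 195 in the mutant ones. Of 15 translational repressors glo alone passed (-1.18), and of the 2 PNG kinase subunits in the list, png (0.03) and plu (0.17), 0. Cell cycle regulators had 6 of 41 lower, with APC4 (-1.83), rod (-1.35), shtd, the largest subunit of the anaphase-promoting complex (-1.33), ial, the Aurora B kinase (-1.0), and cort, a female meiotic activator of that complex (-0.89), and APC7 was higher (0.74). Of 15 calcium genes 2 were lower (13.3%), a share under that of all records, Itp-r83A, the IP3 receptor (-1.35), and Ca-P60A, the SERCA pump (-0.90). With median-of-ratios scaling, quantile normalisation or the length trend removed, 0 calcium genes were lower. Of 5 oocyte surface genes (median -1.03) clos (-1.76) and fs(1)N (-1.40) were lower, and of 9 nuclear receptor and tramtrack genes 0 passed. The medians of the dorsal group, axis, repressor, cell cycle and ring canal lists turned positive with median-of-ratios scaling (0.06, 0.04, 0.10, 0.16 and 0.15). With wild type replicate 2 left out, 0 axis, 2 dorsal group, 1 cell cycle, 0 calcium and 1 oocyte surface genes were lower.

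Cytoskeletal lists ranged from 7.14% lower (dynein) to 21.1% (kinesins), beside 17.7% of all records. Their higher shares ran from 0% (kinesins and spindle genes) to 9.52% (ring canal), beside 7.3% of all records. Of 19 kinesins neb (-2.06), Klp3A (-1.0), Klp98A (-0.96) and Klp61F, the bipolar kinesin-5 (-0.71), were lower (median -0.48). The neb transcript stood at 1588 and 1767 in the wild type libraries and 450.03 and 355 in the mutant ones. Ring canal and nurse cell actin genes gave kel (-1.43), cher, the filamin cheerio (-1.11), and hts, adducin (-0.83), lower and sqh, the myosin light chain (0.75), and Act42A (0.62) higher of 21. Spindle genes fell in Grip128 (-1.07), asp (-0.92), dgt5 (-0.71) and dgt6 (-0.67), of 27. In the dynein list of 14 Gl, the dynactin subunit p150, fell (-0.96) and Arp1, the dynactin filament actin-related protein, rose (0.65). Of 8 germline fate regulators vir, part of the N6-methyladenosine writer complex, was lower (-2.28) and snf higher. With wild type replicate 2 left out, 1 kinesin was lower, and of the ring canal, spindle, dynein and germline fate lists 0 passed in either direction.

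**Figure D3:**
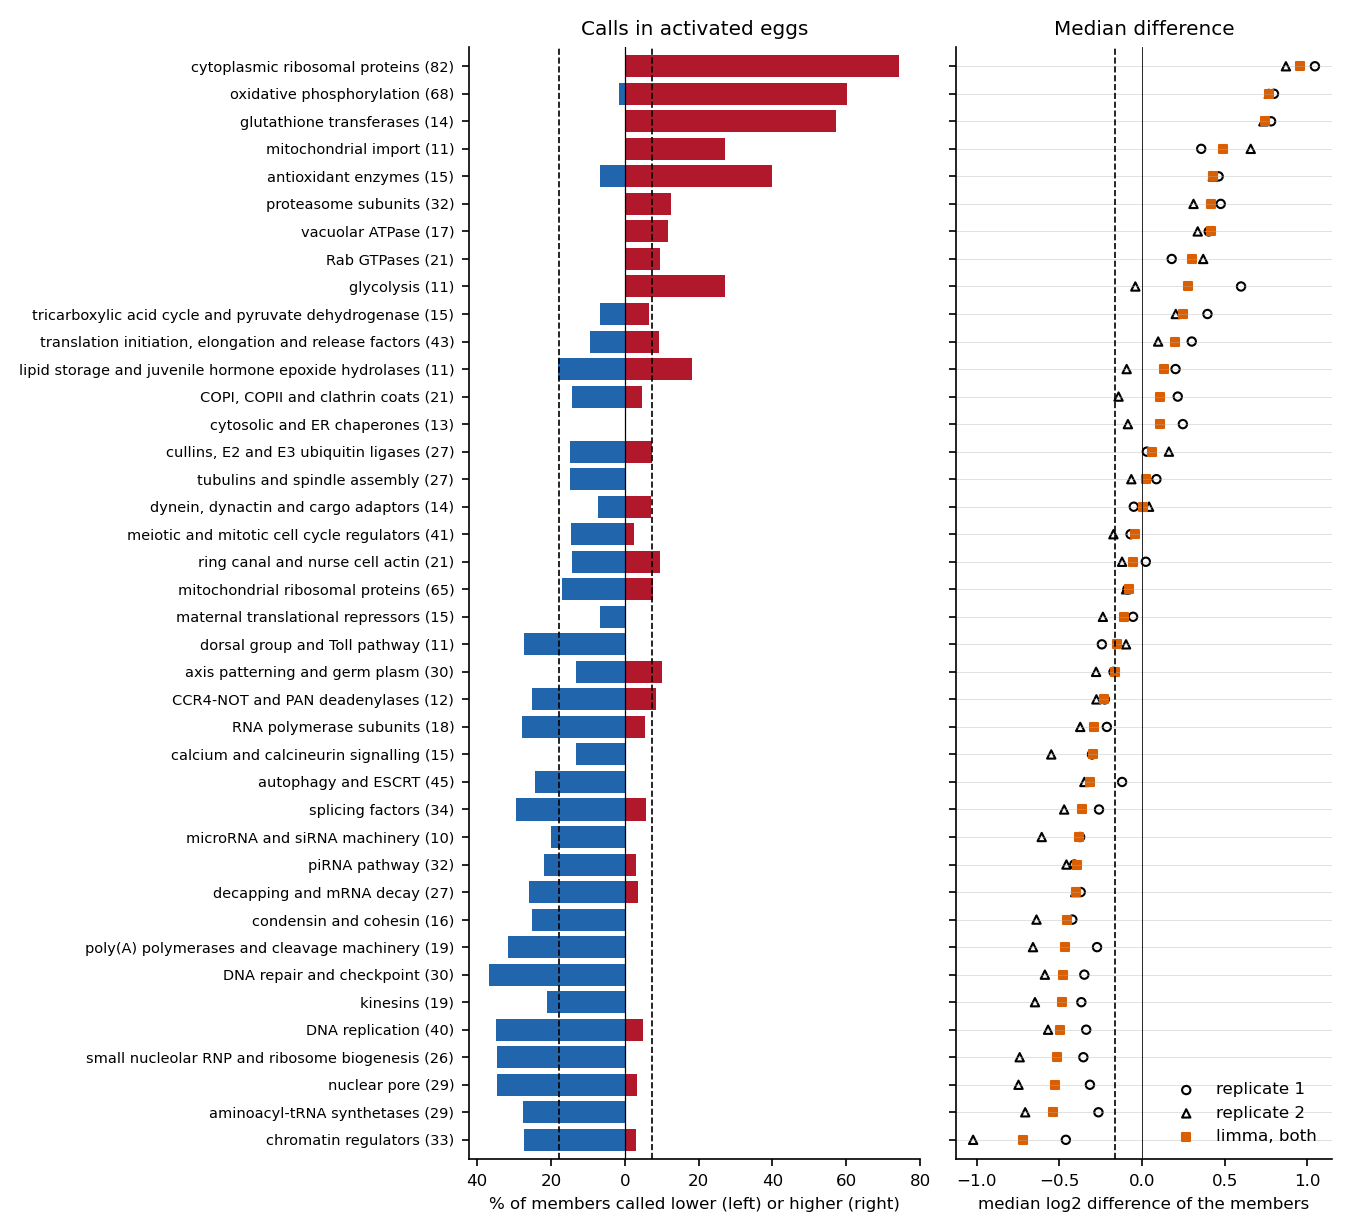
Gene lists with at least 10 members in the table, with member numbers in parentheses, ordered by median log2 difference. Left, % of members called lower (blue) or higher (red) in mutant eggs, with dashed lines at the shares over all records (17.7% and 7.3%). Right, median difference by limma (orange) and between same-numbered libraries (open symbols), with the median over all records dashed. Ribosomal proteins and oxidative phosphorylation reach 74.4% and 60.3% higher, and DNA repair reaches 36.7% lower.

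Transcript length moved with the direction of the calls. The 5404 records with a known length were put in 8 bins of equal size. In the bin of shortest transcripts (median 797 nt) 31.5% were called higher and 5.62% lower. In the bin of longest (median 6288 nt) the shares were 0.444% and 28.7%. The share called higher fell from bin to bin, and the share called lower rose. Median log2 differences ran from 0.38 to -0.50 between the libraries numbered 1 and from 0.57 to -1.01 between those numbered 2. Length also separated libraries of 1 genotype: wild type replicate 2 exceeded wild type replicate 1 by a median of 0.52 log2 units for the longest transcripts and differed from it by -0.21 for the shortest. Between the mutant replicates the same medians were 0.01 and -0.15.

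The lists differ in length in the same way. The median transcript length was 869.5 nt for ribosomal proteins, 795 nt for oxidative phosphorylation, 949 nt for glutathione transferases, 2847 nt for DNA repair and 5339 nt for chromatin regulators, beside 2190 nt over all records. Mitochondrial ribosomal proteins were as short (794 nt) and had a median difference of -0.08, beside 0.77 for oxidative phosphorylation. In mature oocytes the medians of these lists were -0.45 and 0.31, so they stood apart at that stage as well. After a smooth trend on length was removed from each library, 735 records were lower and 139 higher, 700 of them among the 1355. With that correction 27 mitochondrial ribosomal proteins were lower and 0 higher. All 20 leading decreases and 16 of the 20 leading increases were still called, and Dip2, RpL41, Tom7 and CG12721 were not. The part of length in the calls was not tested further.

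**Figure D4:**
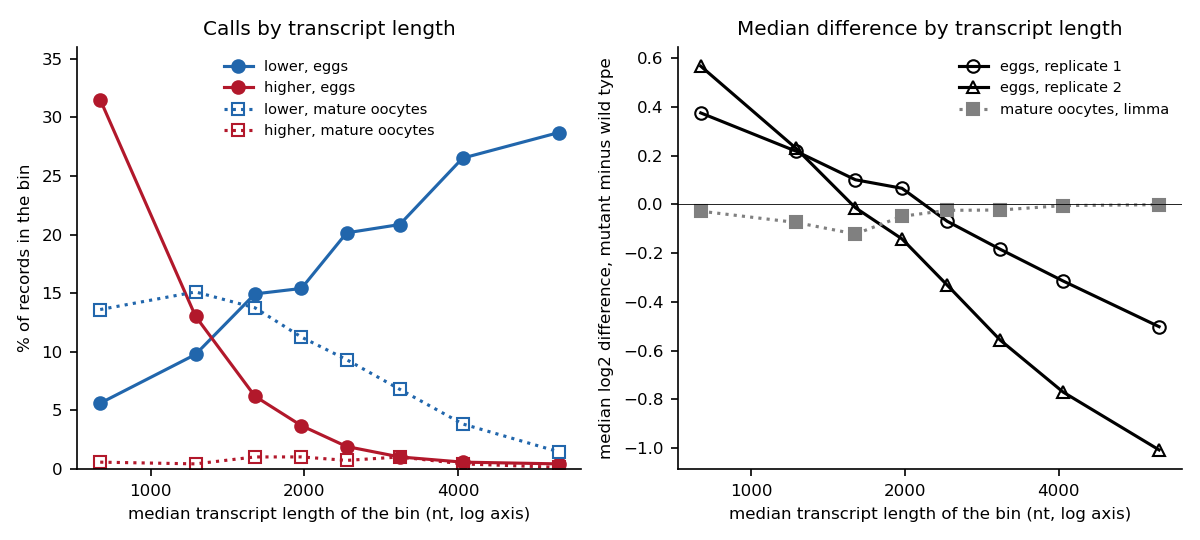
Calls and differences by transcript length in 8 bins of 675 or 676 records, plotted at each bin's median length (log axis). Left, % of the bin called lower (blue) or higher (red) in mutant against wild type eggs (filled circles) and mature oocytes (open squares). Right, median log2 difference between same-numbered egg libraries (black) and by limma in mature oocytes (grey). In eggs the share called lower climbs with length to 28.7%, whereas in mature oocytes it drops to 1.48%.

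The same genotype comparison in mature oocytes, made on libraries that none of the egg values come from, gave 508 lower (9.37%) and 37 higher (0.683%) records. Of the 959 records lower in mutant eggs 386 were also called lower in mature oocytes, which is 40.2% of the egg list and 76% of the mature list. Of the 396 higher ones 28 were called in mature oocytes too, 7.07% of the egg list and 75.7% of the mature list. In neither direction was any record called the opposite way at the other stage. The sign of the difference was shared by 925 of the 959 (96.5%) and 379 of the 396 (95.7%). Those lower in eggs had a median mature difference of -0.70, and those higher one of 0.42. Both fits draw on 1 pooled spread.

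Examples fall on both sides of equality. Cyp6a19 had a log2 difference of -4.29 in eggs and -4.93 in mature oocytes, Tango14 had -3.0 and -3.21, and CG17322 had -2.72 and -2.74. For bsf the pair was -3.97 and -3.10, for Dcr-1 -3.31 and -2.14, for Prp8 -2.76 and -1.47, the last not called in mature oocytes (limma adjusted p = 0.0726). GstE6 had 1.81 and 0.73, GstS1 1.57 and 1.27, and Sp7 1.58 and 1.78. Of the 959 lower records 757 had the larger difference in eggs, and of the 396 higher ones 386. These records were chosen on the egg values, which by itself favours such a lean.

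Whether the difference itself changed between the stages was tested by the interaction of genotype and stage. In limma 0 of 5421 records passed (0%), with a lowest adjusted p of 0.561, while 444 had an unadjusted p under 0.05, 220 of them towards higher in mutant eggs and 224 towards lower. Hsp70Aa had the interaction value 2.13 (SE 0.69, limma adjusted p = 0.561). GstE6 had 1.09 (SE 0.36) and GstD1 0.79 (SE 0.26), with the same adjusted p. With 2 libraries a group a miss of the threshold does not show that the differences were equal. The change from mature oocyte to egg within each genotype uses the same egg libraries. Records lower in mutant eggs had a median change of 0.11 in wild type and -0.30 in the mutant, and those higher -0.22 and 0.23. These records, Dcr-1 and Hsp23 among them, were chosen on the egg values, which by itself pushes the changes of the genotypes apart. Dcr-1 went by 0.40 in wild type and -0.77 in the mutant, and Hsp23 by -1.36 and 0.04.

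**Figure D5:**
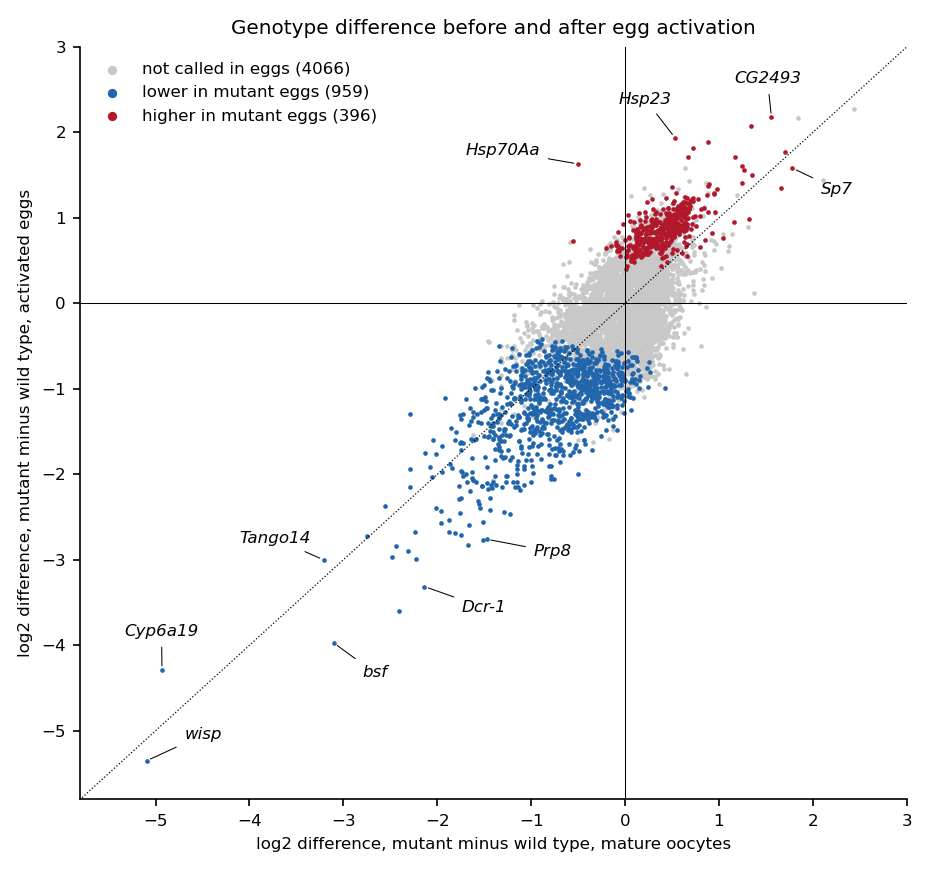
Log2 difference of mutant minus wild type in mature oocytes (x axis) and activated eggs (y axis) by limma for 5421 records, coloured by their call in eggs. The dotted line marks equal differences. Nearly all blue points lie left of 0 and nearly all red points right of it, and Hsp70Aa (-0.50, 1.63) is a red point on the left.

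The share of noncoding RNAs called higher was near the 7.3% of all records. Of 60 noncoding records 5 were called higher and 1 lower, and the median was 0.65, beside -0.16 over all records. A positive difference was seen in 54, where the median over all records was negative. Among them were all 6 records of ribosomal RNA and its pseudogenes and all 13 with no current gene name. Records of the same ribosomal RNA are similar in sequence, so they may share reads and are not separate observations. Replicates could also differ. CR41602, an 18S pseudogene record, stood at 41192 and 42571 in wild type eggs but at 22988 and 50753 in wild type mature oocytes. Both mutant values lay above both wild type values in 32 of the 60, beside 21.4% of all records. The called ones were 3 structured RNAs, namely the RNA of the signal recognition particle (7SL), 7SK, which holds back the elongation factor P-TEFb, and the RNA of RNase P, as well as the hairpin RNA CR32207 and the antisense records CR44431 and CR43430. 7SL stood at 295013 and 183796 in the wild type libraries and 585724 and 406777 in the mutant ones (log2 difference 1.07, limma adjusted p = 0.0357). It alone made up 2.63% and 1.35% of the summed wild type values and 4.54% and 2.89% of the mutant ones. CR32207 stood at 230.2 and 162 in the wild type libraries and 820.3 and 529 in the mutant ones (1.77). CR43430 was the record that fell, at 1423 and 1965 in the wild type libraries and 973 and 692 in the mutant ones (-1.03), and without strand information its reads cannot be told from those of the gene it overlaps. All noncoding records together took 14.9% and 10.4% of the summed values in wild type and 22.6% and 21.4% in mutant eggs. The 6 records of ribosomal RNA had a median of 0.78 and 0 calls, and the 13 with no current gene name a median of 0.71 and 0 calls. The part of this share in the other differences was not tested.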

How the data were processed

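RNA was measured by sequencing of total RNA (TRIzol, ERCC spike-ins added, Ribo-Zero, TruSeq v2, per the labels' protocols). The deposited table holds a signal, the authors' normalised read counts. Per the submitters' processing notes the tools were HTSeq, RSEM 1.2.25 and STAR 2.4.2a, with genome build dm6. For the normalisation no method, and no use of the spike-ins, is given in the sources used here. The table used here has 0 ERCC rows. Of 5422 records 1 exact duplicate was dropped. Records were matched to RefSeq genes of the assembly Release 6 plus ISO1 MT by accession (5391 of 5421), and lengths and exon numbers came from the Ensembl canonical transcript (5404).

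Values were analysed as log2(value + 1) without a filter in 1 limma fit (limma 3.58.1, R 4.3.3, intensity trend) of 6 group means over 12 libraries, with 6 residual and 2.43 prior degrees of freedom and no block. The code was tested on simulated data. The replicates are biological per the labels. Differences are mutant minus wild type. Alternatives were pseudocounts of 0.5 and 10, a filter on a mean of 500, median-of-ratios and quantile scaling, only the libraries compared, blocks for the replicate number, a loess trend on length (span 0.75), and leaving out each egg library in turn (for the interaction, each egg or mature library). The immature libraries, which add to the pooled spread, were all kept except where only the libraries compared entered.

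Named genes were wisp, the 15 largest called changes each way, the 5 largest each way among genes with annotation-number symbols, and of 48 lists up to 5 called members or the 2 most abundant. The text also names further called members of short lists, Integrator subunits, noncoding records and neighbours of named genes, chosen after their values were seen. The interaction had 0 calls to name. The members and lists were chosen with earlier results of these data known.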

Additional observations from a re-analysis of the deposited data

How the results depend on the processing

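On the values as deposited 396 records were higher and 959 lower. Pseudocounts of 0.5 and 10 and a mean of at least 500 kept both counts within 1.5 times, and so did 1 replicate block over all stages (271 higher and 744 lower). Median-of-ratios scaling gave 566 higher and 592 lower, quantile normalisation 203 higher and 294 lower, and only the 4 egg libraries 59 higher and 417 lower. The length correction gave 139 higher and 735 lower. With a replicate block within each stage there were 1040 higher and 1869 lower, all 1355 calls among them, and with that block and the length correction 796 higher and 1682 lower. Leaving out 1 egg library gave 19 to 254 higher and 184 to 844 lower, lowest without wild type replicate 2. The cause of these changes was not tested. The interaction had 0 calls in each alternative except the replicate block within each stage (1 higher, 0 lower) and that block with the length correction (8 higher, 3 lower). Same-numbered libraries of the genotypes deviated together within each stage (r over genes 0.849 in immature oocytes, 0.483 in mature oocytes, 0.771 in eggs), and immature libraries deviated against those of the other stages (r = -0.938 to -0.31). With 2 numbers a stage and no label that ties a number to a shared day or batch, pairing is a hint from the data, not the design. With the replicate block within each stage 76 of 82 cytoplasmic ribosomal proteins and 57 of 68 oxidative phosphorylation genes were higher. The wisp value ranged from -5.97 to -4.73 without 1 library and was called under all 14 alternatives.

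Of 187 named calls besides wisp, 129 missed the threshold without wild type replicate 2, 88 with only the egg libraries, 84 without mutant replicate 2, 76 with quantile normalisation, 72 with the length correction and 26 with median-of-ratios scaling, and 0 changed sign under any alternative. Signs turned for named genes that were not called: Hsc70-4 (0.13 median-of-ratios, -0.27 to 0.12 without 1 library), Hsc70-3 (0.0080 length correction, with or without the block), CG7033 (-0.27 quantile, -0.12 to 0.18 without 1 library), Tcp-1zeta (-0.50 to 0.0135 without 1 library), His4:CG33907 (-0.0413 quantile, -0.52 length correction, with or without the block), png (-0.33 length correction, with or without the block, -0.086 to 0.15 without 1 library), plu (-0.44 length correction, with or without the block), usp (-0.27 to 0.50 without 1 library) and ftz-f1 (-1.22 to 0.13 without 1 library). With the length correction and the block within each stage, His4:CG33907 and plu passed as lower (limma adjusted p = 0.016 and 0.0223). Depth is unknown, and 2 libraries a group and the floor of the table limit what could be seen.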

Other observations

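Integrator, the complex that cleaves nascent small nuclear RNAs and ends transcription at other genes, was looked up as a whole after IntS2 and IntS4 appeared among the leading decreases, so its count is a description of a list chosen on these values. Of 14 listed subunits 8 were lower in mutant eggs and 0 higher, beside 17.7% and 7.3% of all records, with a median log2 difference of -1.40. The lower ones were IntS2 (-2.71), IntS4 (-2.69), IntS8 (-2.57), defl (-2.12), IntS9 (-1.69), IntS1 (-1.63), omd (-1.52) and IntS14 (-1.28). IntS8 stood at 789.9 and 937 in the wild type libraries and 175 and 119 in the mutant ones. The catalytic subunit IntS11, which works with IntS9, had a log2 difference of -0.22 and was not called (limma adjusted p = 0.39), with values of 1162 and 1295 in the wild type libraries and 1125 and 990.4 in the mutant ones. In mature oocytes 5 of the 14 were lower, beside 9.37% of all records. With the length trend removed 6 were lower in eggs, and 5 with wild type replicate 2 left out.

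By chromosome arm the share called lower was 15.7% on 2L, 17.1% on 2R, 17.2% on 3L, 19.3% on 3R and 19.4% on X, and on the small chromosome 4 it was 0 of 33 records, with 3 higher. The chromosome 4 records had a median length of 4514 nt, longer than the 2388 nt of X, and a median log2 difference of 0.01. Within 250000 bases of wisp on X, 5 of 30 other records were lower and 1 higher. The lower ones were Tango4 (-1.17), ATP7 (-0.91), CG11802 (-0.84), Upf1 (-0.78), which starts 76 bases beyond the end of wisp, and CG10347 (-0.66), and the higher one was CG12721 (1.89). The other neighbour of wisp, sicily, ends 198 bases before it and had a log2 difference of -0.22 (limma adjusted p = 0.438). Calls were spread over all levels of expression, with 21.1% lower and 9.51% higher in the lowest of 4 level classes and 12.6% and 8.63% in the highest.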
